A study of Mus musculus with 8 samples.

Results

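PD-1 positive CD8 T cells were taken from 4 single-cell gene expression libraries of mouse ependymoma, a brain tumour. Members were selected on their counts of unique molecular identifiers (UMIs, each standing for 1 captured mRNA molecule). Of 39632 droplet barcodes with at least 1000 UMIs, 200 to 6000 genes and at most 10% mitochondrial UMIs, 4103 held at least 2 UMIs of Cd3d, Cd3e and Cd3g together, at least 2 of Cd8a and Cd8b1 together and none of Cd4, Mki67 or Top2a, and were read as CD8 T cells outside the cell cycle. A member is such a cell with at least 1 UMI of Pdcd1, the gene of PD-1, and there were 891 of these, or 21.7% of the CD8 T cells. The comparison cells were the 3212 CD8 T cells with Pdcd1 at 0. Membership thus rests on RNA and not on PD-1 protein, and a cell with no Pdcd1 UMI may still hold the transcript.

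The tumours arose in NestinCreERT2;Fus1;RFPTdT mice (EPZFTA-RELA), in which the ZFTA-RELA fusion is switched on by a tamoxifen-dependent Cre under the Nestin promoter of neural stem cells. Tumour-bearing animals were randomised at 3 weeks of age to 1 intrathecal dose of mavrilimumab (5 mg/kg), which blocks the alpha subunit of the receptor for the myeloid growth factor GM-CSF, or of a control antibody (vehicle IgG), and were followed to a humane endpoint. Samples came from the tumour or brain of animals 6 to 8 weeks old and were sorted after staining for CD45, found on leukocytes, and Ter119, found on erythroid cells. The paper describes its single-cell comparison of vehicle and mavrilimumab as made on tumours at recurrence. The time from dosing to sampling is not given for either group in the sources used here and may differ between them. Each treatment has 2 libraries, each a pooled experiment. Tumours were pooled within a group, how many went into each library is not given in the sources used here, and a spread between libraries may therefore be partly technical.

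PD-1 is a receptor on the surface of activated T cells that dampens signalling from the T cell receptor when it meets PD-L1 or PD-L2. A first encounter with antigen induces it for a short time, whereas T cells that go on meeting antigen, as in tumours and chronic infection, keep it together with further inhibitory receptors such as LAG-3, TIGIT and TIM-3 (Havcr2) and with the transcription factor TOX. In this state, called exhaustion, cells that retain TCF-1 (Tcf7) renew the pool and others carry granzymes with little renewal.

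The members were spread unevenly over the libraries. There were 8 in the library labelled vehicle IgG 1, 236 in vehicle IgG 2, 440 in mavrilimumab 1 and 207 in mavrilimumab 2, with a median of 12021.5, 2713.5, 4199 and 11841 UMIs per member respectively. The libraries held between 24354457 and 148657643 UMIs in all, and pairs of libraries shared at most 60 of the barcodes past the filters and no member. Since 8 cells are too few for a sum, vehicle IgG 1 entered no fit across genes unless stated, and every comparison with vehicle IgG then rests on 1 library.

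Before any direction by treatment is read, the T cell receptor (TCR) files need a remark. Of the 3 TCR libraries analysed, 3 carry an inner sample name of the other treatment than their label. The TCR library labelled mavrilimumab 1 shared 2491 of its 2749 cell barcodes (90.6%) with the expression library labelled mavrilimumab 2, and the TCR library labelled mavrilimumab 2 shared 4867 of 5659 (86.0%) with the expression library labelled mavrilimumab 1, whereas the one labelled vehicle IgG 1 shared 182 of 193 (94.3%) with its namesake. Libraries are called here by the labels of their expression files, receptors were joined by barcode, and each treatment difference below is one between libraries so labelled. CD8 T cells made up 50 of 984 barcodes past the filters in vehicle IgG 1, 1567 of 26746 in vehicle IgG 2, 1426 of 6412 in mavrilimumab 1 and 1060 of 5490 in mavrilimumab 2.

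The defining genes were checked first. Of the members, 451 held 1 Pdcd1 UMI, 174 held 2 and 266 held 3 or more, up to 29 in a cell of mavrilimumab 2. Levels are given as CPM, the UMIs of a gene in a sum of cells scaled to a common total. Cells just inside and just outside the rule (1 and 0 Pdcd1 UMIs) differed in Tox, which stood at 219 and 173 CPM in vehicle IgG 2, 687 and 305 in mavrilimumab 1 and 180 and 145 in mavrilimumab 2. Tox, which the rule did not use, was seen in 36.4% of members of vehicle IgG 2, 80.0% of mavrilimumab 1 and 73.9% of mavrilimumab 2. Lag3 was seen in 5.51%, 29.8% and 21.7%, and Tigit in 28.4%, 40.2% and 50.7%. Among these 3 libraries each marker was the least often seen in vehicle IgG 2, where cells were shallowest. Microglia-gated droplets of the 3 libraries (median 6914.5, 7585.5 and 8518.5 UMIs) held Tox in 17.8%, 4.36% and 14.4%, Tigit in 0.90%, 10.5% and 10.8% and Lag3 in 3.90%, 45.6% and 30.5%, so that a Lag3 UMI alone marks no T cell here. Of the 8 members of vehicle IgG 1, 7 held Tox (87.5%), 3 Lag3 (37.5%) and 2 Tigit (25.0%).

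Which genes set PD-1 positive cells apart from other CD8 T cells was asked within libraries. Each member was paired with the Pdcd1-zero CD8 T cell of its own library nearest in total UMIs (within 0.1 on a log10 scale), counts were summed per library and state, and edgeR's quasi-likelihood test was run with the library as a block over vehicle IgG 2, mavrilimumab 1 and mavrilimumab 2. PD-1 positive cells carried more mRNA of 5 of 12 inhibitory receptors and of the exhaustion factor Tox. They carried less of the genes of naive and central memory T cells. The chemokines Ccl3 and Ccl4 were also higher, with most of their UMIs in a few cells in most libraries. Of 11340 genes tested, 185 passed a Benjamini-Hochberg adjusted p of 0.05 (1.63%), of which 103 were higher (0.908%) and 82 lower (0.723%) in members, and 1351 had an unadjusted p under 0.05. The median log2 fold change of all tested genes was -0.002, and 170 of the 185 moved the same way in all 3 libraries. TCR gene segments, which follow the clones a library holds, made up 6 of the calls (80 tested). Left out in turn, vehicle IgG 2 left 129 calls, mavrilimumab 1 left 367 and mavrilimumab 2 left 264, while DESeq2 made 68 calls (22 higher, 46 lower), of which 23 were among the 185, and a fit without the library block made 0 (no gene at an adjusted p under 0.05). Each fit with a library left out rests on 2 libraries and 1 residual degree of freedom, against 2 in the main fit. A call kept there is thus a weak check.

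**Figure D1:**
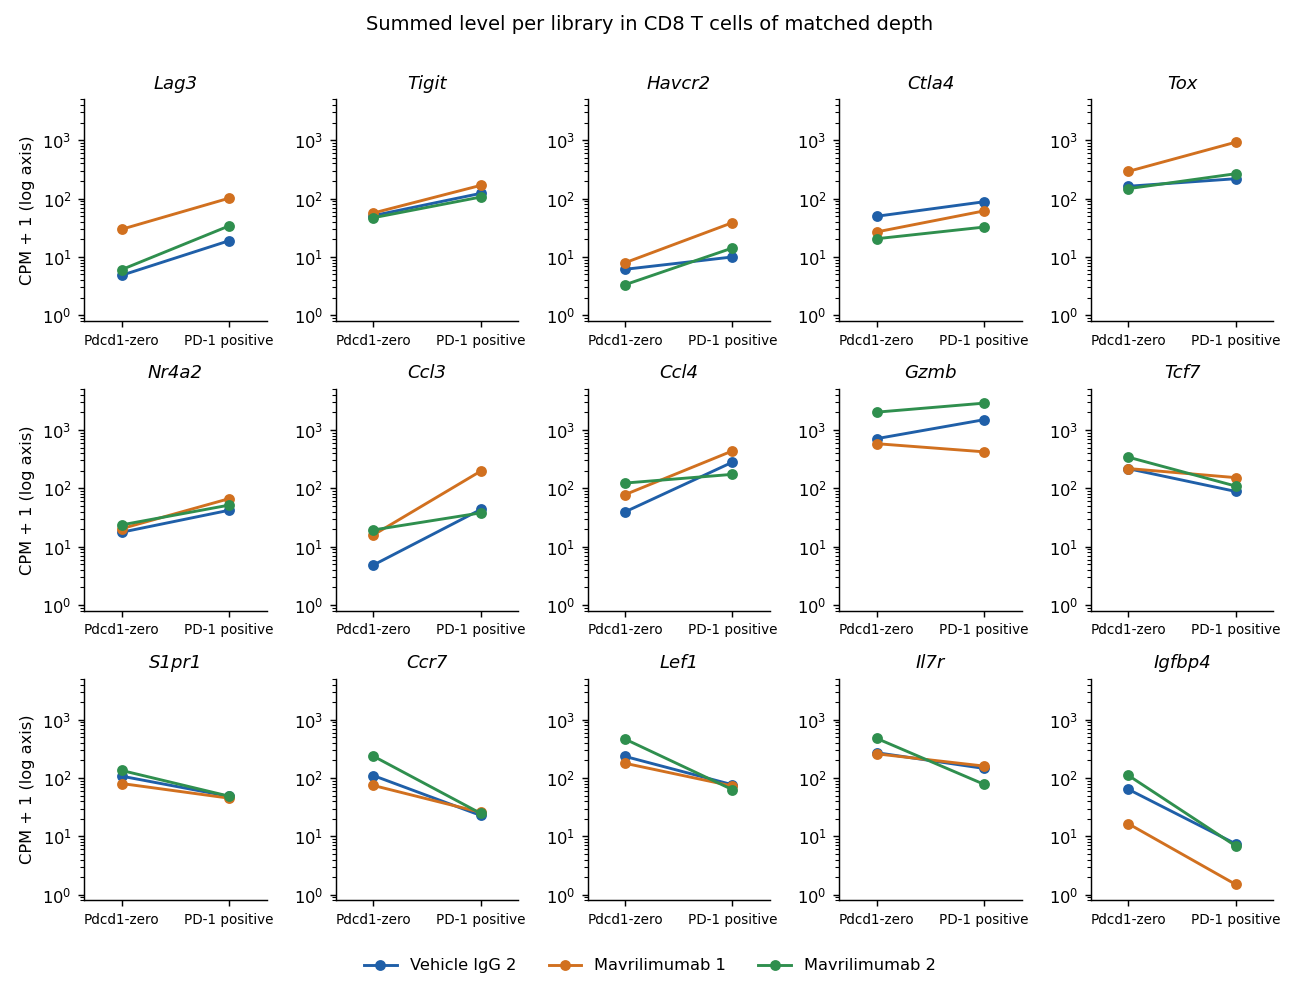
Summed level (CPM + 1, log axis) of 15 genes in PD-1 positive CD8 T cells and in Pdcd1-zero CD8 T cells of matched depth, with 1 line for each of the 3 libraries. Lag3 goes from 28.8 to 101 CPM in mavrilimumab 1 and from 5.07 to 33.1 in mavrilimumab 2, while Igfbp4 goes from 110 to 5.83 CPM in mavrilimumab 2. Gzmb goes down in mavrilimumab 1 and up in the other 2 libraries.

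Inhibitory receptors formed the group that the gate gene itself belongs to. Of 12 tested, 5 were higher and none lower, with a median log2 fold change of 0.68. Lag3, a receptor for MHC class II, measured 18.0 CPM in members against 3.85 in Pdcd1-zero cells of vehicle IgG 2, 101 against 28.8 in mavrilimumab 1 and 33.1 against 5.07 in mavrilimumab 2. Members lay above their matched cells in 3 of 3 libraries, by a log2 fold change of 2.05 ± 0.22 (SE; adjusted p = 0.000812). Tigit, which competes for the ligand CD155, stood at 122, 168 and 105 CPM in members against 50.1, 55.7 and 46.0 (1.33 ± 0.13; adjusted p = 0.000603), a difference of much the same size in each library. Havcr2, the gene of TIM-3, rested on few molecules, with 7, 76 and 34 UMIs in members against 4, 14 and 6 (2.16 ± 0.36; adjusted p = 0.0117). Without mavrilimumab 1 its adjusted p was 0.216.

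Ctla4, which takes CD80 and CD86 from CD28, measured 87.3, 60.5 and 31.5 CPM in members and 48.8, 25.8 and 19.5 in their matched cells (0.90 ± 0.16; adjusted p = 0.0206). Its call was lost without vehicle IgG 2 (adjusted p = 0.0712) or mavrilimumab 1 (0.0953). Entpd1, the gene of the ectonucleotidase CD39, stood at 110, 102 and 108 CPM against 38.5, 66.1 and 63.2 (0.83 ± 0.16; adjusted p = 0.0252). It was lost without vehicle IgG 2 (0.0739). The other 7 receptors did not pass: Cd244a at 0.99 (adjusted p = 0.0995), Lilrb4a at 0.53, Klrc1 at 0.31, Cd160 at 0.26, Cd96 at 0.21, Nt5e at 0.18 and Btla at -0.40. Ctla4, Lag3 and Tigit are markers that the study itself picked on these samples, so their direction is not independent evidence. DESeq2 called none of the 12, and the lowest unadjusted p values by edgeR were those of Tigit and Lag3.

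Exhaustion-linked transcription factors gave 6 higher and none lower of 14 tested, with a median of 0.74. Tox, which fixes the chromatin of exhausted cells, measured 218 against 162 CPM in vehicle IgG 2, 927 against 292 in mavrilimumab 1 and 266 against 147 in mavrilimumab 2. The mavrilimumab 1 library was far above the others in both states, and the log2 fold change over the 3 was 1.01 ± 0.18 (adjusted p = 0.0190), past the threshold whichever library was left out. Nr4a2, an orphan receptor induced by TCR signals, stood at 41.1, 65.5 and 50.6 CPM against 16.7, 19.4 and 22.6 (1.37 ± 0.18; adjusted p = 0.00357). Rbpj, the DNA-binding partner of Notch, followed with 1.03 ± 0.14 (adjusted p = 0.00474), and Maf, Bhlhe40 and Id2 with 1.49, 0.71 and 0.67. Those last 3 each lost their call on leaving out at least 1 library. Eomes, a T-box factor of memory and exhausted cells, was not past the threshold (-0.40; adjusted p = 0.300) and ranged in members from 25.7 CPM in vehicle IgG 2 to 175 in mavrilimumab 1.

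The genes of naive and memory quiescence had the largest share of calls among the pathway lists: 12 of 14 tested were lower in members and none higher, with a median of -1.44. Ccr7, which brings naive T cells into lymph nodes, measured 21.8, 24.8 and 23.7 CPM in members against 109, 73.6 and 236 in matched cells. The groups did not overlap, and the log2 fold change was -2.56 ± 0.27 (adjusted p = 0.000812). Tcf7 and Lef1, partner factors of stem-like T cells, fell by 1.19 ± 0.18 and by 2.05 ± 0.25 on the log2 scale (adjusted p = 0.00852 and 0.00222). Members kept Tcf7 at 87.3, 151 and 108 CPM. Klf2, which drives the exit receptor gene S1pr1, changed by -1.41 ± 0.12 (adjusted p = 0.000178) and S1pr1 itself by -1.23, while Il7r, the receptor of the survival cytokine IL-7, changed by -1.47. Igfbp4 showed the widest gap, with 6.42, 0.496 and 5.83 CPM against 62.9, 15.4 and 110 (-4.10 ± 0.26; adjusted p = 2.69e-05).

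Bcl2 and Ly6c2 were the 2 genes of that list that did not pass, at 0.25 and 0.03. On leaving out any library 11 or 12 of the 14 were called lower, and DESeq2 called 3. The count was also 12 after every cell was thinned to 1000 UMIs, a setting in which members are the cells that keep a Pdcd1 UMI (116, 170 and 50 in the 3 libraries) and all remaining CD8 T cells (1451, 1256 and 1010) are the comparison. Genes outside the lists that the naming rule picked were Cmah, an enzyme of sialic acid (-2.54), Rflnb (-2.19), the sialyltransferase St6gal1 (-2.12), Usp28 (-1.81) and the complement regulator Cd55 (-1.72). In members these 5 stayed between 4.47 and 37.2 CPM in the 3 libraries, against 12.9 to 195 in matched cells.

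Among effector cytokines and chemokines, 4 of 10 tested were higher and none lower, with a median of 0.75. Ccl3, a chemokine of activated T cells, measured 42.4 against 3.85 CPM in vehicle IgG 2, 197 against 14.9 in mavrilimumab 1 and 36.9 against 18.3 in mavrilimumab 2 (2.49 ± 0.40; adjusted p = 0.00998). A Ccl3 UMI was seen in 10, 54 and 31 members, and 5 cells held 84.9%, 72.2% and 65.3% of these UMIs. A single cell held 143 of the 396 Ccl3 UMIs of mavrilimumab 1. Ccl4 gave 1.74 ± 0.33 (adjusted p = 0.0252), and 0.103 without vehicle IgG 2. Single cells held 96 of the 218 Ccl4 UMIs of members of vehicle IgG 2 and 270 of the 881 of mavrilimumab 1. In the 3 libraries 5 members held 63.8%, 62.9% and 27.9% of the Ccl4 UMIs. Ifng, the gene of interferon gamma, stood at 74.5, 81.4 and 83.6 CPM in members, an even level, against 36.0, 51.7 and 32.8 in matched cells (0.97 ± 0.16; adjusted p = 0.0119). Xcl1, which attracts cross-presenting dendritic cells, gave 0.66 (adjusted p = 0.00657; 0.0779 without vehicle IgG 2), and Ccl5 0.56 (adjusted p = 0.0502). With cells that held markers of other cell types left out by the full lists, which kept 2 libraries, Ifng was -0.037 and Xcl1 -0.41.

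Granule genes held few calls: 1 of 11 tested was higher, Fasl at 0.59 (adjusted p = 0.0335; 0.168 without vehicle IgG 2). Of the 11, 10 were fitted above 0, with a median of 0.34. Gzmb, granzyme B, measured 1501 against 710 CPM in vehicle IgG 2, 2885 against 2022 in mavrilimumab 2 and 421 against 581 in mavrilimumab 1, so that its direction differed between libraries (0.34; adjusted p = 0.591). Gzma stood at 861, 95.8 and 523 CPM against 231, 93.4 and 55.4 (1.75; adjusted p = 0.0602), and Gzmk at 155, 515 and 217 CPM against 86.0, 465 and 37.8 (1.05; adjusted p = 0.174). In mavrilimumab 1, Gzma and Gzmk were thus at much the same level in both states. Prf1, perforin, gave 0.19 (adjusted p = 0.675).

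**Figure D2:**
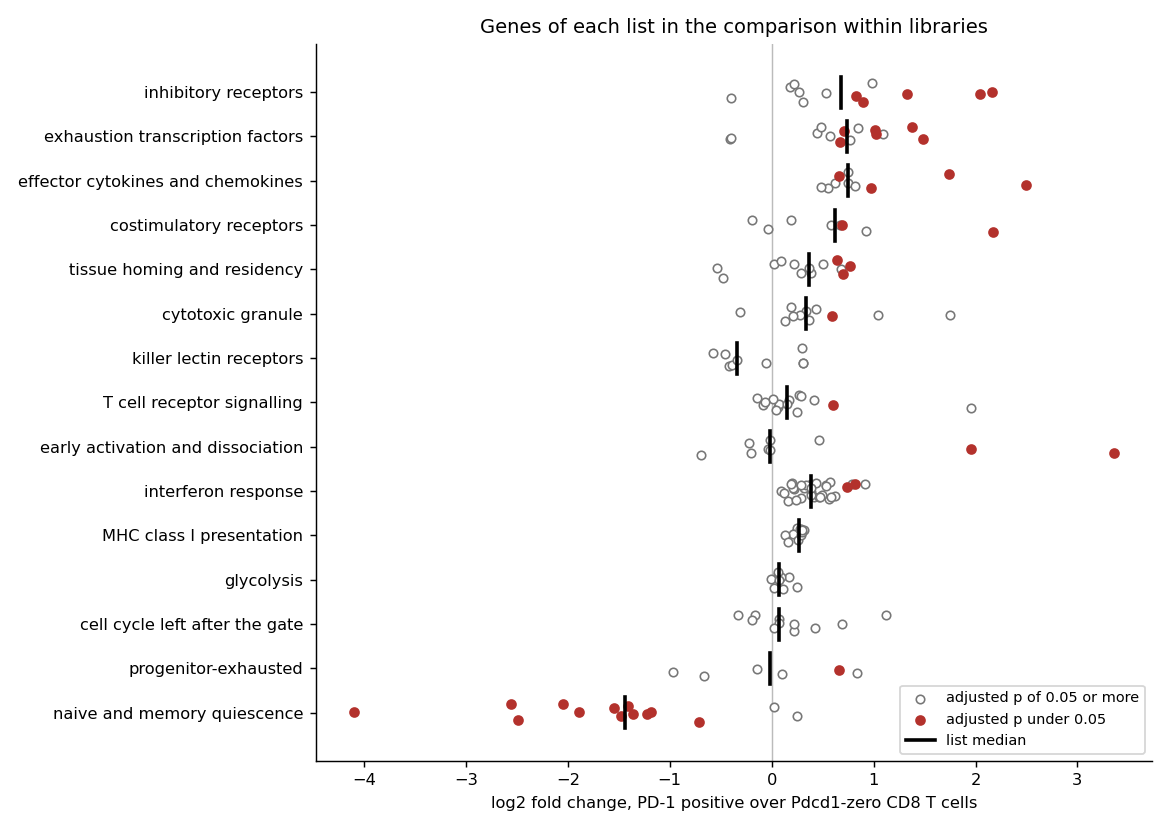
Log2 fold change of each tested gene, PD-1 positive over depth-matched Pdcd1-zero CD8 T cells, with a row for each of 15 gene lists. Filled points passed an adjusted p of 0.05 and bars mark list medians, which run from -1.44 for naive and memory quiescence to 0.75 for effector cytokines and chemokines.

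The other lists held up to 3 calls each. Tissue residency gave 3 higher of 13: Rgs1 (0.77), Itgae, the CD103 chain that binds E-cadherin (0.70), and Cxcr6, the receptor of CXCL16 (0.64). All 3 lost their call without vehicle IgG 2 (adjusted p = 0.0614, 0.0760 and 0.0817). Rgs1 was -0.035 with cells that held markers of other cell types left out by the full lists. Costimulatory receptors gave 2 higher of 8, Tnfrsf4 (OX40; 2.18, on 8, 80 and 16 UMIs in members) and Tnfrsf18 (GITR; 0.69). The progenitor-exhausted list gave 1 of 6, Xcl1, and its defining gene Slamf6 measured 12.8, 71.0 and 35.4 CPM in members against 38.5, 86.0 and 96.8 (-0.97; adjusted p = 0.0536). TCR signalling gave 1 of 15, the adaptor gene Sh2d2a (0.60; adjusted p = 0.0754 without vehicle IgG 2). Interferon-response genes gave 2 of 32, Oas1a (0.81) and Ifi27l2a (0.74), with all 32 fitted above 0 and a median of 0.39. Both lost their call without vehicle IgG 2 (adjusted p = 0.0731 and 0.0788). Neither MHC class I presentation (12 genes; median 0.27) nor killer lectin receptors (9; -0.34), glycolysis (9; 0.08) or cell cycle genes left after the gate (11; 0.07) held a call. GM-CSF itself, Csf2, was at 7.70, 4.47 and 7.39 CPM in members, with no call (0.75; adjusted p = 0.657), and its receptor chain Csf2ra, the target of mavrilimumab, was at 11.6, 5.46 and 16.7 CPM (0.69; adjusted p = 0.551). Only 7, 8 and 13 members of the 3 libraries held a Csf2ra UMI, on 9, 11 and 43 UMIs. In mavrilimumab 2, 1 cell held 15 of the 43.

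Several calls rested on few cells. Cxcl13, a B cell attractant and the largest rise named by the rule (4.08 ± 0.60; adjusted p = 0.00608), measured 1.28, 12.4 and 113 CPM in members, and in mavrilimumab 2 a single cell held 258 of its 290 UMIs. Without mavrilimumab 1 or mavrilimumab 2 it was too low to be tested. Ifitm1 (2.89) was held by 7, 4 and 5 members of the 3 libraries, and missed the threshold without vehicle IgG 2 (adjusted p = 0.0730). The heat shock genes Hspa1a and Hspa1b (3.36 and 1.95), the 2 calls of the early activation and dissociation list (9 tested; median -0.02), held 123 of their Hspa1a UMIs in 8 members of mavrilimumab 2, 84 of them in 1 cell. By contrast Cd200r1, an inhibitory receptor (1.82), was seen in 37, 102 and 54 members, and Nrp1, a semaphorin receptor, gave 1.30. In mavrilimumab 1, however, 134 of the 237 Cd200r1 UMIs came from 71 members that share 1 receptor (clonotype 1, below). Without that library Cd200r1 gave 1.22 (adjusted p = 0.00457). Trgc4, a constant gene of the gamma chain, gave 1.42, with an adjusted p of 0.0727 without mavrilimumab 1. Of the 20 genes named by rule, 18 of 20 were called without vehicle IgG 2, 18 of 19 without mavrilimumab 1 and 19 of 19 without mavrilimumab 2. These fits have 1 residual degree of freedom each. The rule took the largest called changes with the same direction in every library. All signs were therefore bound to be kept, and the kept calls are no independent check.

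Markers of other cell types were read in the same sums. The 8 microglia genes summed to 1108 against 517 CPM in vehicle IgG 2, 810 against 948 in mavrilimumab 1 and 1992 against 1354 in mavrilimumab 2, with none of the 8 called although all were fitted above 0 (median 1.38). Neural or tumour genes summed to 1683 against 2328 CPM in vehicle IgG 2, where 74.2% of members held such a UMI, and to 80.9 against 16.8 CPM in mavrilimumab 2, and 1 of the 9, Sox2ot, was called lower in members (-1.62). Monocyte or macrophage genes summed to 50.1 against 8.99 CPM, 88.8 against 74.1 and 61.4 against 22.6 in the 3 libraries, with none of the 2 tested called. Gamma-delta T genes had a median of 1.12 over 4 genes with none called, and the B cell genes of mavrilimumab 1 summed to 430 against 163 CPM, where 1 member alone held 423 of 450 UMIs of the plasma cell gene Jchain. Cells with at least 2 UMIs of another type's markers, not counting 3 markers that a large share of CD8 T cells held, made up 59.7%, 5.68% and 32.4% of members of the 3 libraries and 57.6%, 6.36% and 21.3% of matched cells. Leaving them out gave 273 calls, 134 higher and 139 lower, with 5 of 12 inhibitory receptors higher and 12 of 14 quiescence genes lower. Of the 174 earlier calls that could be tested there, 143 were called again and 5 had the opposite sign. The planned setting, which counted the 3 markers too, left 2 libraries and 2877 tested genes and gave 11 calls. Of the 80 earlier calls that could be tested in it, 7 were called again and 5 had the opposite sign. No doublet caller was run.

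Members were not uniform in Pdcd1, and several genes varied with its number of UMIs. Over cells with 0, 1, 2 and 3 or more Pdcd1 UMIs, Tox in mavrilimumab 1 stood at 305, 687, 746 and 1521 CPM, and in mavrilimumab 2 at 145, 180, 218 and 341. In vehicle IgG 2 it went from 173 over 219 and 294 to 154, with no such order. Lag3 in mavrilimumab 1 went from 26.4 to 58.3, 90.5 and 192 CPM, but its values were not in order in mavrilimumab 2 (5.56, 29.0, 27.3 and 37.8) or vehicle IgG 2 (5.64, 18.3, 13.1 and 21.3). Tigit was in order in all 3, in mavrilimumab 2 from 40.6 to 72.0, 91.0 and 133 CPM. Il7r showed the opposite order in both mavrilimumab libraries, from 269 to 185, 173 and 99.5 CPM in mavrilimumab 1 and from 589 to 144, 86.5 and 28.3 in mavrilimumab 2. For Tcf7 the values in mavrilimumab 2 were 431, 165, 100.1 and 72.4 CPM. Gzmb again divided the libraries: in vehicle IgG 2 it went from 806 to 1921 CPM and in mavrilimumab 2 from 1415 to 3208, but in mavrilimumab 1 from 592 to 403. Median depth was alike over these classes in vehicle IgG 2 and mavrilimumab 1 (2514 to 2931 and 3810 to 4439 UMIs) and ran from 10119 to 12294 in mavrilimumab 2. These are descriptions, since Pdcd1 chose the cells.

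**Figure D3:**
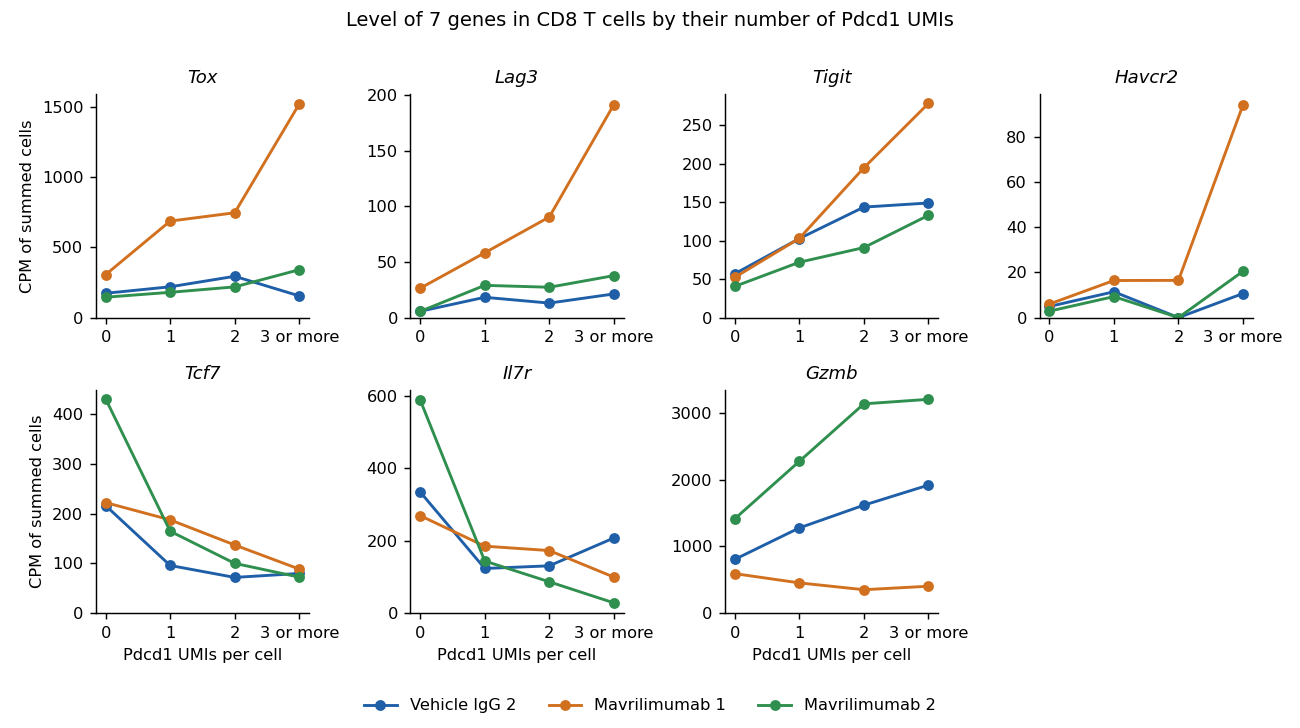
Summed level (CPM, linear axis) of 7 genes in CD8 T cells by their number of Pdcd1 UMIs (0, 1, 2, and 3 or more), with 1 line for each of 3 libraries. Tox reaches 1521 CPM in mavrilimumab 1 and 341 in mavrilimumab 2 at 3 or more UMIs, while Il7r is highest at 0 in all 3 libraries.

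Inhibitory receptors were seldom seen together in 1 member. At least 2 of Lag3, Tigit, Havcr2 and Ctla4 were seen in 7.63% of members of vehicle IgG 2, 30.0% of mavrilimumab 1 and 22.2% of mavrilimumab 2, against 1.27%, 5.68% and 4.83% of matched cells. Once each cell was thinned to 1000 UMIs, to set libraries at 1 depth, the shares in members were 2.54%, 4.77% and 0.966%. Gzmb without Tcf7 was the commonest combination in 2 libraries, at 51.7% of members in vehicle IgG 2 and 52.7% in mavrilimumab 2, and was 26.6% in mavrilimumab 1. Tcf7 without Gzmb was seen in 10.6%, 27.7% and 17.4%, and Tcf7 with Slamf6, the pair that marks progenitor-exhausted cells, in 0.424%, 13.9% and 15.0% (0.424%, 1.14% and 1.93% after thinning). In mavrilimumab 2 the same pair was seen in 39.6% of matched Pdcd1-zero cells. Havcr2 with Tcf7 was rare, at 0.847%, 1.59% and 3.86%. As a measure of free RNA, Gzmb had a UMI in 2.00%, 1.54% and 17.3% of microglia-gated droplets, and Tcf7 in 1.50%, 1.54% and 4.80%.

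To compare members with the CD8 T cells most like them, both arms were next limited to cells with a granzyme UMI (Gzma, Gzmb or Gzmk), which 70.8%, 79.1% and 87.4% of members of the 3 libraries had, against 44.9%, 73.0% and 42.5% of matched cells. Of 10691 genes, 46 passed the edgeR test (0.43%), 19 higher (0.178%) and 27 lower (0.253%), with 792 at an unadjusted p under 0.05. Lag3 (1.68 ± 0.19; adjusted p = 0.00127), Ctla4 (1.23) and Tigit (0.87) were higher among 12 inhibitory receptors, and Nr4a2 (1.11) among 14 exhaustion-linked factors. Lag3 kept its call whichever library was left out. Ctla4 and Tigit lost theirs without vehicle IgG 2 (adjusted p = 0.153 and 0.0800) or mavrilimumab 1 (0.0973 and 0.203). Nr4a2 lost its call without mavrilimumab 1 (0.173). Tox (0.81), Ccl3 (2.11) and Ccl4 (1.16) did not pass. Of 13 quiescence genes, 5 were lower, among them Lef1 (-1.33), Satb1 (-1.30), Klf2 (-0.67) and Tcf7 (-0.56). Klf2 lost its call without mavrilimumab 1 (adjusted p = 0.0570). Tcf7 lost its call whichever library was left out (0.0680 without vehicle IgG 2, 0.139 without mavrilimumab 1 and 0.184 without mavrilimumab 2). Among granzyme-holding cells Tcf7 was 58.7, 136 and 78.6 CPM in members and 82.0, 185 and 125 in matched cells. Its fitted change was thus smaller than the -1.19 of the wider depth-matched comparison, a difference that was not tested. In mavrilimumab 1, where the wider comparison held 305 Tcf7 UMIs in members and 437 in matched cells, the gap changed little. The NK receptor gene Klra6 was also lower (-1.45), and so were Klre1 and Klra7, 2 of 9 killer lectin receptors. Of the 46 calls, 34 (73.9%) were shared with the 185 of the wider comparison in the same direction (18.4% of those).

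Calls of that comparison also took in genes of other cells. Lyz2, a myeloid lysozyme, gave the largest rise among the genes named by rule (3.00; the heat shock gene Hspa1a, below the level the rule asks for, gave 3.17) on 33.8, 103 and 8.43 CPM in members against 5.35, 3.23 and 5.81. Ptprd (-3.17) and Pcdh9 (-1.54), genes of neurons, were at 16.0 and 116 CPM in members of vehicle IgG 2 and at 2.22 CPM or less in the other 2 libraries. Haemoglobin genes were lower on the values of mavrilimumab 2 alone (Hbb-bs 54.2 against 367 CPM). Ifitm1 was 2.59, and -0.28 without mixed cells. Cmah was again lower (-1.83). DESeq2 called 8 genes here, of which 2 were among the 46, and gave 2 of the 46 the opposite sign. Of the other settings, 124 passed without mavrilimumab 2, 95 against all granzyme-holding Pdcd1-zero cells and 15 at 1000 UMIs, where members were likewise redrawn by the Pdcd1 UMIs that were kept.

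Whether members belonged to expanded clones was read from the TCR. Cells were joined into a clonotype when the V gene, J gene and CDR3 nucleotides of their leading alpha and beta chains were identical, and a clonotype with at least 2 cells in its TCR library was called expanded. No TCR library of vehicle IgG 2 was analysed here. In mavrilimumab 1, 287 of 398 members with both chains were in an expanded clonotype (72.1%; exact 95% interval 67.4% to 76.5%), against 211 of 386 matched cells (54.7%). In mavrilimumab 2 the counts were 106 of 170 (62.4%; 54.6% to 69.7%) against 31 of 190 (16.3%), and in vehicle IgG 1 they were 3 of 7 against 0 of 6, the latter compatible with a share of up to 45.9%. Members lay above their matched cells in 3 of 3 libraries, by a mean of 35.5 percentage points (SD 15.7). Of the members of vehicle IgG 1, 2 were in clonotypes also found in mavrilimumab 1, and without vehicle IgG 1 the mean was 31.7 points. Leaving out mixed cells by the full marker lists left 2 libraries, with a mean of 9.65 points and members higher in 1 of them. That was mavrilimumab 1, at 86.0% of 57 members against 66.7% of 57 matched cells. In mavrilimumab 2 only 2 members and 1 matched cell were left, all expanded. The 3 libraries allow no exact sign-flip permutation p below 0.25 (two-sided), which is the value they gave. Without clonotype 1 of mavrilimumab 1, described next, the mean difference was 33.7 points, and with at least 5 cells asked of a clonotype it was 13.8 points, higher in 2 of 3 libraries.

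**Figure D4:**
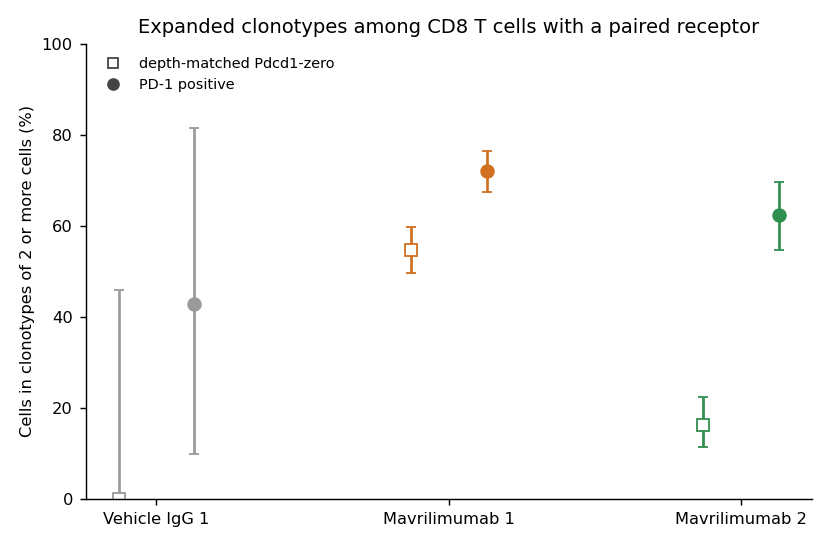
Share of CD8 T cells with both receptor chains that belong to a clonotype of 2 or more cells (percent), PD-1 positive (filled) and depth-matched Pdcd1-zero (open), in the 3 libraries with receptor data. Bars are exact 95% binomial intervals, which cover counting error only. Mavrilimumab 2 has the widest gap, from 16.3% to 62.4%.

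Expansion varied with the number of Pdcd1 UMIs. At 0, 1, 2 and 3 or more UMIs the expanded share in mavrilimumab 1 was 51.8%, 62.4%, 75.3% and 88.9%, and the median size of a cell's clonotype was 2, 2, 9 and 24 cells. In mavrilimumab 2 the shares were 16.6%, 59.3%, 48.4% and 70.0%. The 2 libraries differed in how members were divided over clones: 217 clonotypes held the 398 members of mavrilimumab 1, of which 1 held 71 (17.8%) and the 10 largest 150 (37.7%), whereas 135 held the 170 of mavrilimumab 2, the largest 5. Clonotypes were often mixed, and 60.6% of members of mavrilimumab 1 and 30.6% of mavrilimumab 2 shared their clonotype with a Pdcd1-zero CD8 T cell. Among the 29 clonotypes with at least 5 CD8 T cells in mavrilimumab 1, the share of members ran from 0% to 88.9% with a median of 37.5%.

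The CDR3 sequences of the 3 clonotypes with most members in mavrilimumab 1 and of the 2 with most in mavrilimumab 2 are shown as examples of the receptors that members shared. They were copied from the deposited contigs, run from the conserved cysteine codon to the conserved phenylalanine codon, and are 5′ to 3′, with capitals for the bases that the contig annotation assigns to neither the V nor the J gene (added or D-gene bases at the joint).
Mavrilimumab 1, clonotype 1, alpha (TRAV16, TRAJ57): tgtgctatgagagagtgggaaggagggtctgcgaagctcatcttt
Mavrilimumab 1, clonotype 1, beta (TRBV12-2, TRBJ1-1): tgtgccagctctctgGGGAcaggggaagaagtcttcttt
Mavrilimumab 1, clonotype 2, alpha (TRAV6-7-DV9, TRAJ52): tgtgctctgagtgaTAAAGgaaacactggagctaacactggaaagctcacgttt
Mavrilimumab 1, clonotype 2, beta (TRBV3, TRBJ1-3): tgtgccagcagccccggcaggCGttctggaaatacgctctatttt
Mavrilimumab 1, clonotype 3, alpha (TRAV19, TRAJ58): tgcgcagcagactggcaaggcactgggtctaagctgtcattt
Mavrilimumab 1, clonotype 3, beta (TRBV19, TRBJ1-4): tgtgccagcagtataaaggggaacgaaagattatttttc
Mavrilimumab 2, clonotype 1, alpha (TRAV14N-1, TRAJ11): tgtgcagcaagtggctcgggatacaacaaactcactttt
Mavrilimumab 2, clonotype 1, beta (TRBV29, TRBJ1-1): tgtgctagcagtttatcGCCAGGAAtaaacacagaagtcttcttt
Mavrilimumab 2, clonotype 2, alpha (TRAV4-4-DV10, TRAJ49): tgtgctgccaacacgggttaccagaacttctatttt
Mavrilimumab 2, clonotype 2, beta (TRBV29, TRBJ2-7): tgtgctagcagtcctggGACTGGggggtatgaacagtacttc
All 10 loops are in frame, at 36 to 54 bases. Clonotype 1 of mavrilimumab 1 held 71 members and 11 Pdcd1-zero cells (86.6% members), clonotype 2 held 14 and 20, and clonotype 3 held 12 and 11. Those of mavrilimumab 2 held 5 and 4, and 5 and 1.

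Clonotype 1 of mavrilimumab 1 stood at higher levels of these genes than the rest of its library. Its 71 members measured 1947 CPM of Tox, 336 of Lag3, 168 of Havcr2 and 478 of Tigit, against 759, 62.2, 17.9 and 122 CPM in the other 327 members with both chains. Its 11 Pdcd1-zero cells measured 1514, 243, 108 and 433 CPM, nearer to the members of the same clonotype than to the other Pdcd1-zero cells (283, 25.3, 5.68 and 50.1 CPM). For Tcf7, Ccl4 and Ctla4 those 11 cells were not nearer, at 189 (on 7 UMIs), 270 and 0 CPM against 224, 69.5 and 26.3 in the other Pdcd1-zero cells. Ccl3, at 162 CPM, lay between the 11.4 of the other Pdcd1-zero cells and the 923 of the clonotype's members. Cd200r1, Gzmb and Ly6c2 measured 378.5, 243 and 0 CPM in the 11 cells and 13.4, 583 and 1878 in the other Pdcd1-zero cells. They were thus again nearer to the clonotype's members (501, 205.5 and 235). Tcf7 was at 33.6 CPM in members of the clonotype and 177 in the other members, and Ly6c2, a gene of memory CD8 T cells, at 235 and 1451. Ccl3 and Ccl4 stood at 923 and 1633 CPM in members of the clonotype and at 97.3 and 284 in the other members, and Cd200r1 at 501 and 52.3. The clonotype's members held 247 of the 396 Ccl3 UMIs and 437 of the 881 Ccl4 UMIs of all members of the library. Gzmk was alike (568 and 516 CPM). The clonotype was picked for its size after the receptors were seen, so these are values without a test, and cells of 1 clone in 1 library are not replicates. The other members still lay above the other Pdcd1-zero cells in each of the 4 receptors and factors named first.

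How often CD8 T cells were PD-1 positive was then compared between treatments. With all UMIs, the share was 16.0% in vehicle IgG 1, 15.1% in vehicle IgG 2, 30.9% in mavrilimumab 1 and 19.5% in mavrilimumab 2. Thinned to 1000 UMIs per cell, it was 2.00%, 7.40%, 11.9% and 4.72%, so that mavrilimumab 2 fell below vehicle IgG 2. Mean shares at that depth were 4.70% ± 3.82 (SD, n = 2) and 8.32% ± 5.09 (SD, n = 2), and the difference of 3.62 percentage points was smaller than the spread between libraries (two-sided exact permutation p = 0.667; with 2 against 2 libraries the smallest possible p is 0.3333). Microglia-gated droplets held a Pdcd1 UMI in 1.26%, 1.80%, 0.769% and 2.90% at that depth and B-gated droplets in none of 41, 147 and 131. Whether the UMIs of the microglia-gated droplets were free RNA or their own was not tested. In vehicle IgG 1 the share among microglia-gated droplets with all UMIs, 15.5%, was close to the 16.0% of its CD8 T cells. Holding a Pdcd1 UMI thus does not by itself set its 8 members apart from such droplets. Of these members, 2 held 1 Pdcd1 UMI, 3 held 2 and 3 held 3 or more. In mavrilimumab 2 the droplets also came near, at 13.2% against 19.5% with all UMIs, and 76 of its 207 members held a single Pdcd1 UMI. Left out in turn, each library gave a difference between 0.0156 (without mavrilimumab 1) and 7.22 points (without mavrilimumab 2).

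**Figure D5:**
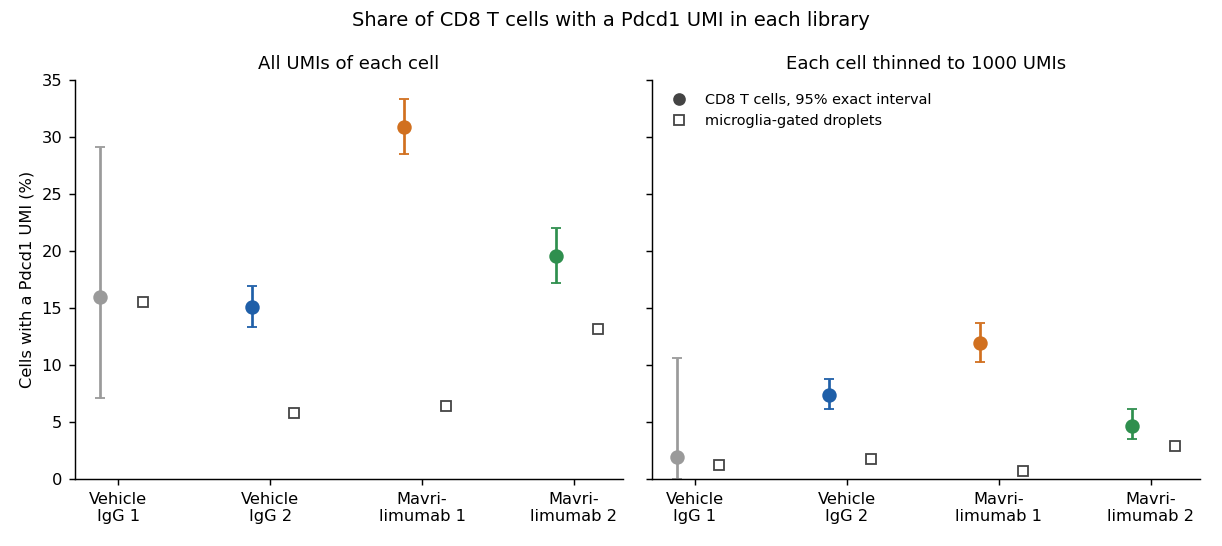
Share of CD8 T cells with a Pdcd1 UMI (percent) in each library with all UMIs (left) and after thinning each cell to 1000 UMIs (right); circles with exact 95% intervals are CD8 T cells and squares are microglia-gated droplets of the same library. At 1000 UMIs the shares run from 2.00% to 11.9%, and those of the droplets from 0.769% to 2.90%.

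Differences between treatments within members could be fitted only on 1 vehicle library against 2. No gene of 11115 passed an adjusted p of 0.05 (0.0%; smallest 0.0557), and 1386 had an unadjusted p under 0.05. DESeq2 called 129 genes and limma-voom 0. Vehicle IgG 2 lay outside both mavrilimumab libraries for 8444 genes (76.0%), so that the order of 3 libraries says little about any gene. Of the 4 receptors the study chose on these samples, Lag3 stood at 18.0 CPM in all members of vehicle IgG 2 and at 101 and 33.1 in the mavrilimumab libraries (1.88; adjusted p = 0.481), Tigit at 122 against 168 and 105 (0.18; adjusted p = 0.866) and Ctla4 at 87.3 against 60.5 and 31.5 (-0.92; adjusted p = 0.471). Pdcd1 is the gate gene and was not tested. Over the 12 inhibitory receptors the median was 0.02, with none called, and over 15 exhaustion-linked factors it was 0.77, with none called.

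Interferon-response genes lay on 1 side. All 32 tested were lower in vehicle IgG 2 than in both mavrilimumab libraries, 31 with an unadjusted p under 0.05 and none with an adjusted p under 0.05 (smallest 0.108; median log2 fold change 1.49). Ifit3, an antiviral effector, stood at 101 CPM in vehicle IgG 2 and at 417 and 373 in the mavrilimumab libraries, and Irf7, which amplifies type I interferon, at 177, 619 and 483. The 8 members of vehicle IgG 1, which did not enter the fit, lay above vehicle IgG 2 in 30 of the 32 genes and above the lower mavrilimumab library in 20, with Ifit3 at 468 and Irf7 at 390 CPM. The 2 vehicle libraries thus did not lie together. The summed level of the 32 genes in members and in matched Pdcd1-zero cells was 4813 and 3898 CPM in vehicle IgG 2, 13672 and 13835 in mavrilimumab 1 and 10551 and 5186 in mavrilimumab 2. In vehicle IgG 1 it was 11461 and 3691 CPM on 7 matched pairs. Members thus stood well above their matched cells in vehicle IgG 1 and mavrilimumab 2 and at the same level in mavrilimumab 1.

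MHC class I genes followed the same order, with 12 of 12 lower in vehicle IgG 2 than in both mavrilimumab libraries (median 0.70; none called). The members of vehicle IgG 1 lay above vehicle IgG 2 in 11 of the 12 and above the lower mavrilimumab library in 8. Neural genes, which T cells do not use, had the opposite order with 9 of 9 higher in vehicle IgG 2 (median -6.23), and they summed there to 1683 CPM in members. How far this foreign RNA and the lower depth of vehicle IgG 2 take part in the difference was not tested. Prf1 stood at 50.1, 123 and 84.4 CPM and Slamf6 at 12.8, 71.0 and 35.4, with neither called. In members of vehicle IgG 1, which did not enter the fit, both genes stood above both mavrilimumab libraries. The 7 matched members there held 15 UMIs of Prf1 and 10 of Slamf6.

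Whether the gap between members and Pdcd1-zero cells itself depended on treatment was tested as an interaction over the same 3 libraries. No gene of 12040 passed (0.0%; smallest adjusted p 0.0657), 572 had an unadjusted p under 0.05, and DESeq2 and limma-voom called 0 as well. With 1 degree of freedom left among libraries, a lack of calls does not show that the gap was alike under both treatments. Inhibitory receptors had a median of -0.20 in the interaction, exhaustion-linked factors 0.45 and quiescence genes -0.24, with none called among them.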

How the data were processed

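Single-cell 5′ gene expression and TCR libraries were made from sorted cells of EPZFTA-RELA mice. The authors deposited UMI counts for every gene and barcode, whose file headers name Cell Ranger 9.0.1, whereas the submitters' processing notes name Cell Ranger 7.1.0, Scanpy 1.8.2 and mm10. TCR contig annotations accompanied them. The matrices were not normalized and held barcodes without cells. Coordinates were not used here.

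Barcodes were filtered and gated as the report describes. Each member was paired with 1 Pdcd1-zero CD8 T cell of its library (within 0.1 log10 UMIs). Counts were summed per library and state where at least 10 cells were present, filtered with filterByExpr, scaled by TMM and tested with edgeR 4.0.16 (R 4.3.3; quasi-likelihood, Benjamini-Hochberg over all tested genes; adjusted p below 0.05). Errors of log2 fold changes are SE. The library was a block for members against Pdcd1-zero cells. Gate genes were not tested, and Gzma, Gzmb and Gzmk were added to these where granzyme cells were compared. limma 3.58.1 and DESeq2 1.42.0 served as alternatives. Shares of cells were compared after thinning each cell to 1000 UMIs, with exact 95% binomial intervals (Clopper-Pearson), which cover counting error only, and with exact permutation tests over libraries (scipy 1.17.1). The tests across genes were checked on simulated counts. Of 100 genes changed 2-fold there, the treatment fit called 5 and the interaction fit 3. At 4-fold they called 67 and 47 of 100. A lack of calls in these 2 fits thus says little about changes of 2-fold. No doublet caller was run. Mixed cells held at least 2 UMIs of another cell type's markers, and leaving them out was an alternative.

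Named by rule were the 10 genes in each direction with the largest fold change among those past the threshold, changed the same way in every library and with a mean of at least 20 CPM, TCR and immunoglobulin segments aside (5 in each direction for granzyme-holding cells), and members of the gene lists. A few genes these rules name are not reported here, though counts over lists include them. Members and lists were chosen with earlier results of these data known. Clonotype 1 of mavrilimumab 1 and genes whose UMIs lay in 1 cell were chosen after their values were seen.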

Additional observations from a re-analysis of the deposited data

Results flagged for a closer look

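Cd6, a modulator of TCR signalling, was lower in members than in matched cells in both vehicle IgG libraries (95.4 against 213 CPM and 91.15 against 95.01) and higher in both mavrilimumab libraries (141 against 131 and 151 against 115), with a fitted log2 fold change of 0.15 over vehicle IgG 2 and the mavrilimumab libraries. Klrd1, the CD94 chain of NK receptors, had CPM values higher in both vehicle IgG libraries (324 against 257 CPM in vehicle IgG 2, but 227 against 225 in vehicle IgG 1, where both sums held the same number of UMIs, so that the order there is a tie) and lower in both mavrilimumab libraries (201 against 214 and 328 against 382), with a fitted value of -0.053. Neither passed the edgeR interaction test over 3 libraries (adjusted p = 0.9862 and 0.9853), and vehicle IgG 1 adds only 7 matched pairs.

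The library labelled vehicle IgG 1 and the one labelled mavrilimumab 1 shared 8 clonotypes identical in V, J and CDR3 nucleotides of both chains. They took in 10 of 177 cells with both chains in vehicle IgG 1, 2 of them members, and 107 of 4811 in mavrilimumab 1. None of these cells shared a barcode, and no other pair of libraries shared a clonotype.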

How the results depend on the processing

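Against 185 genes for members over matched Pdcd1-zero cells, DESeq2 called 68, all Pdcd1-zero cells as comparison 363, thinning to 1000 UMIs 88 and leaving out mixed cells by the full marker lists 11. Leaving out a library gave 129 to 367, the upper value without mavrilimumab 1. In that last mixed-cell setting Ifng was -0.037, Ly6c2 -0.87, Rgs1 -0.035 and Xcl1 -0.41, and after thinning Hspa1b was -0.84 and Oas1a -0.064, each turned in sign. Against 46 genes among granzyme-holding cells, DESeq2 called 8, Pdcd1 at 2 or more UMIs 29, all Pdcd1-zero cells 95, thinning 15 and leaving out mixed cells 3, and leaving out a library gave 52 to 124 (124 without mavrilimumab 2). Ifitm1 was -0.28 there when mixed cells were left out without counting 3 markers that a large share of CD8 T cells held.

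Against 0 genes by treatment within members, RLE size factors called 4, DESeq2 129, no filter on low counts 1382, Pdcd1 at 2 or more UMIs 353, thinning 31 and leaving out mixed cells without counting those 3 markers 8. With the 8 members of vehicle IgG 1 added the count was 0, and then 0 to 249 on leaving out a library (90 without mavrilimumab 1, 249 without mavrilimumab 2). For the interaction, RLE size factors called 3 and so did adding vehicle IgG 1, against 0. The cause of these changes was not tested. Thinning also redrew the members by the Pdcd1 UMIs kept and set them against all remaining CD8 T cells without depth matching, and leaving out mixed cells by the full lists left 4 members (3 with granzyme) in mavrilimumab 2, so that those counts rest on 2 libraries and on 2877 and 2081 genes.

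Without the library as replicate block the counts were 0 for members against matched cells and 0 among granzyme-holding cells. Replicate numbers of the labels as a block, possible only with vehicle IgG 1, gave 88 calls by treatment. Same-numbered libraries deviated together with r = 0.23 over 9400 genes, but 2 pairs do not show that the numbers pair samples. By treatment and for the interaction, leaving out a library of the 3 and the full mixed-cell setting left no degrees of freedom and could not be fitted.

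Differences in PD-1 positive share (0.0156 to 9.66 points) and in expanded share (9.65 to 44.5 points) were above 0 in every setting run. The alternatives that did not count the 3 unspecific markers, or that took in vehicle IgG 1 on sums of at least 5 cells, were chosen after seeing the data. Lag3 and Havcr2 rested on 14 and 7 UMIs in the matched members of vehicle IgG 2.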

Other observations

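The 8 members of vehicle IgG 1, which did not enter the fits of the report, are given as values. Their levels were 379 CPM of Tox, 44.6 of Lag3, 55.7 of Tigit, 145 of Tcf7, 557 of Gzmb and 112 of Slamf6, with Havcr2 and Ctla4 at 0. Of these 8 cells, 75.0% held a granzyme UMI, and none held a neural marker, against 74.2% of members of vehicle IgG 2. On 7 matched pairs, Klf2 stood at 95.4 CPM in members against 1183, Lef1 at 179 against 1408 and Il7r at 107 against 686, all in the direction of the other libraries. Entpd1 was at 155 CPM against 0 and Ccl5 at 7383 against 497, whereas Ctla4, at 0 against 118 CPM, lay the other way. The Ccl5 and Ctla4 values of the Pdcd1-zero cells, 42 and 10 UMIs, each came from 1 cell.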
